A study of Mus musculus with 18 samples.

Results

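The second day of exit from naive pluripotency was followed in wild-type (WT) mouse embryonic stem cells by comparing 3 RNA-seq libraries made after 48 h in N2B27 (T48) with 3 made after 24 h (T24). These are 6 of the 18 libraries of the series, and they were chosen by cell line and time point alone. WT cells are given in the labels as E14 wt, and the study's methods name the line E14TG2a. Before exit the cells were kept in 2i+LIF, a medium in which an inhibitor of MEK, an inhibitor of GSK3 and the cytokine LIF hold them in naive pluripotency, and exit was started by moving them to N2B27, the same base medium without those factors. WT ESC libraries (0 h) and the T24 and T48 libraries of iEZR_CA cells, an E14 line in which doxycycline switches on a constitutively active ezrin, were used for comparison, each in 3 libraries. Doxycycline went onto iEZR_CA cells some 16 h ahead of exit. The labels name none for WT, so the effects of transgene and drug cannot be told apart. All groups were grown on gelatin and the RNA measured was polyadenylated.

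Naive pluripotency, the state of the epiblast before implantation, rests on a mutually reinforcing network of transcription factors that includes Nanog, Esrrb, Klf4 and Tfcp2l1. When ERK signalling is released and LIF and GSK3 inhibition are withdrawn, that network is taken apart and the cells pass into a formative state, known for Otx2, Pou3f1, Fgf5 and the de novo DNA methyltransferases, from which they become able to respond to signals for the germ layers. In N2B27 without added signals the cells are known to go on mainly towards neural fates.

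The T24 libraries held 33276622, 21209425 and 13587076 reads on genes and the T48 libraries 26943997, 10940752 and 25283706. The common biological coefficient of variation over the 18 libraries was 2.98%, so small changes could pass the test. Counts of replicates differed by more than sampling noise in each of the 6 pairs (chi-square per degree of freedom 1.65 to 3.45), so no library was a copy of another. Normalized counts are counts divided by the library's median-of-ratios size factor. A log2 fold change (log2FC) is that of WT T48 against WT T24 unless another contrast is named. A gene rose or fell where edgeR's adjusted p was under 0.05. An error after a log2FC is an approximate standard error (SE), the absolute log2FC over the square root of edgeR's F statistic. This error may be too small where a change is large and a group has few reads. Libraries hold many cells, so fewer cells of a type and less RNA per cell cannot be told apart.

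Of 18469 genes tested, 12137 (65.7%) changed between T24 and T48, 6058 upward (32.8%) and 6079 downward (32.9%). The median size of a called change was 0.57 on the log2 scale among the rises and 0.58 among the falls, and 3081 of the rises and 3088 of the falls were smaller than a factor of 1.5. Beyond a factor of 2, 2000 genes rose (10.8%) and 1812 fell (9.81%), and 312 rose and 242 fell beyond a factor of 8. In 67.3% of the genes the libraries of the 2 time points did not overlap. Scaling to the spike-in RNA in place of the gene counts moved the median of all genes by 0.13 on the log2 scale, and rises then made up 61.8% of the called genes against 49.9%.

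The naive network went on falling on the second day. All 15 naive pluripotency genes fell between T24 and T48, each by more than a factor of 2, with a median log2FC of -3.16. Over all genes 32.9% fell, and 9.81% fell beyond that factor. In the first 24 h 14 of the naive genes had fallen and 1 had risen, beside 33.6% and 31.8% of all genes. Their median was -2.02 in that time and -5.38 over the whole 48 h. The 3 genes of general pluripotency, which both naive and formative cells use, fell too, 1 of them beyond a factor of 2.

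Nanog, the homeobox factor at the centre of the network, stood at 2393, 2392 and 2393 normalized counts in the T24 libraries and at 441, 423 and 369.9 in the T48 libraries, after 23568, 23900.0 and 23788 in ESCs (log2FC -2.55 ± 0.04, adjusted p = 8.6e-57). Esrrb, an orphan nuclear receptor bound to many naive enhancers, was at 5937, 5914 and 5908 at T24 and 355, 369 and 413 at T48 (-3.96 ± 0.04). Both kept all T48 libraries far below all T24 libraries, and for Esrrb the second-day fall was the larger on the log2 scale, though not in counts (-1.85 in the first day against -3.96 in the second, difference -2.11 ± 0.06, adjusted p = 2.2e-43 by edgeR). Zfp42 (Rex1), the most used reporter of the naive state, lost most of its level on the second day. It went from 17903, 17955 and 18921 in ESCs to 12772, 12516 and 11985 at T24 and then to 815, 836 and 810.2 at T48, a first change of -0.57 and a second of -3.93 on the log2 scale (difference -3.36 ± 0.06, adjusted p = 1.3e-37 by edgeR). Klf4, a LIF target, went from 8408, 7819 and 7822 to 494, 484 and 473 and then to 51.01, 47.8 and 55.7, and its first-day fall was the larger on the log2 scale (difference 0.84 ± 0.14, adjusted p = 3.3e-07 by edgeR).

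Nr0b1 (Dax1), an orphan nuclear receptor of the naive network, was the one member of the list that had first risen. It was at 2601, 2924 and 2987 normalized counts in ESCs, 7642, 7872 and 7782 at T24 and 190.1, 201 and 206 at T48. Its rise of 1.44 on the first day was followed by a fall of -5.29 ± 0.05, the largest in the list (adjusted p = 2.2e-46 by edgeR), which left it -3.85 below ESCs on the log2 scale. Tcl1, a co-activator of AKT, fell from 439.9, 412 and 424 to 11.6, 17.2 and 16.4 (-4.87 ± 0.12), and Prdm14, a repressor of FGF signalling genes, from 105, 124 and 88.3 to 6.18, 3.82 and 5.73. Fbxo15 gave the smallest fall, 2840.2, 2934 and 2896 to 1215, 1256 and 1280.0 (-1.21 ± 0.04). Among the general factors, Sox2 fell from 9112, 8804 and 8419 to 2511, 2579 and 2643 (-1.77 ± 0.03), whereas Pou5f1 (Oct4) moved by -0.50 ± 0.03, from 18147, 18579 and 18895 to 13719.8, 13103 and 12555. Both defining factors of pluripotent cells were thus well detected at both times.

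The formative programme, which had gone up on the first day as a whole, split on the second. Of its 19 genes, all of which had risen from ESC to T24 (median 3.27), 7 rose further and 12 fell from T24 to T48, with a median log2FC of -0.37 and with no overlap between T24 and T48 libraries in any of the 19. Of all genes tested, 31.8% rose and 33.6% fell from ESC to T24 (65.4% in either direction). From T24 to T48 these shares were 32.8% and 32.9%, and libraries did not overlap in 67.3%. The largest further rise was that of Sox3, a SOX factor of early neural ectoderm, from 910.0, 819 and 774 to 2291, 2061 and 2303 (1.40 ± 0.05, adjusted p = 4.3e-37 by edgeR). Pou3f1 (Oct6) rose from 5877, 5286 and 4838 to 12884, 11518 and 12661 (1.20 ± 0.09), and Dnmt3b, a de novo DNA methyltransferase, from 30744, 31309 and 29666 to 62554, 58912 and 57412 (0.96 ± 0.03). In the other direction went Tcf15, a bHLH factor, from 1873, 1479.8 and 1107 to 424, 323 and 429.7 (-1.92 ± 0.16, adjusted p = 1.6e-07 by edgeR) after a first-day rise of 3.03. Otx2, the homeobox factor that opens formative enhancers, was at 226, 247 and 256 in ESCs, 4822, 4712 and 4644 at T24 and 2226, 2023 and 2001 at T48, so that a rise of 4.26 was followed by a fall of -1.18 ± 0.04. Fgf5 was at 1059, 1043 and 1047 and then 1364, 1197 and 1114 (0.22 ± 0.06), and its call was lost without T48 replicate 1 (adjusted p = 0.052 by edgeR).

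**Figure D1:**
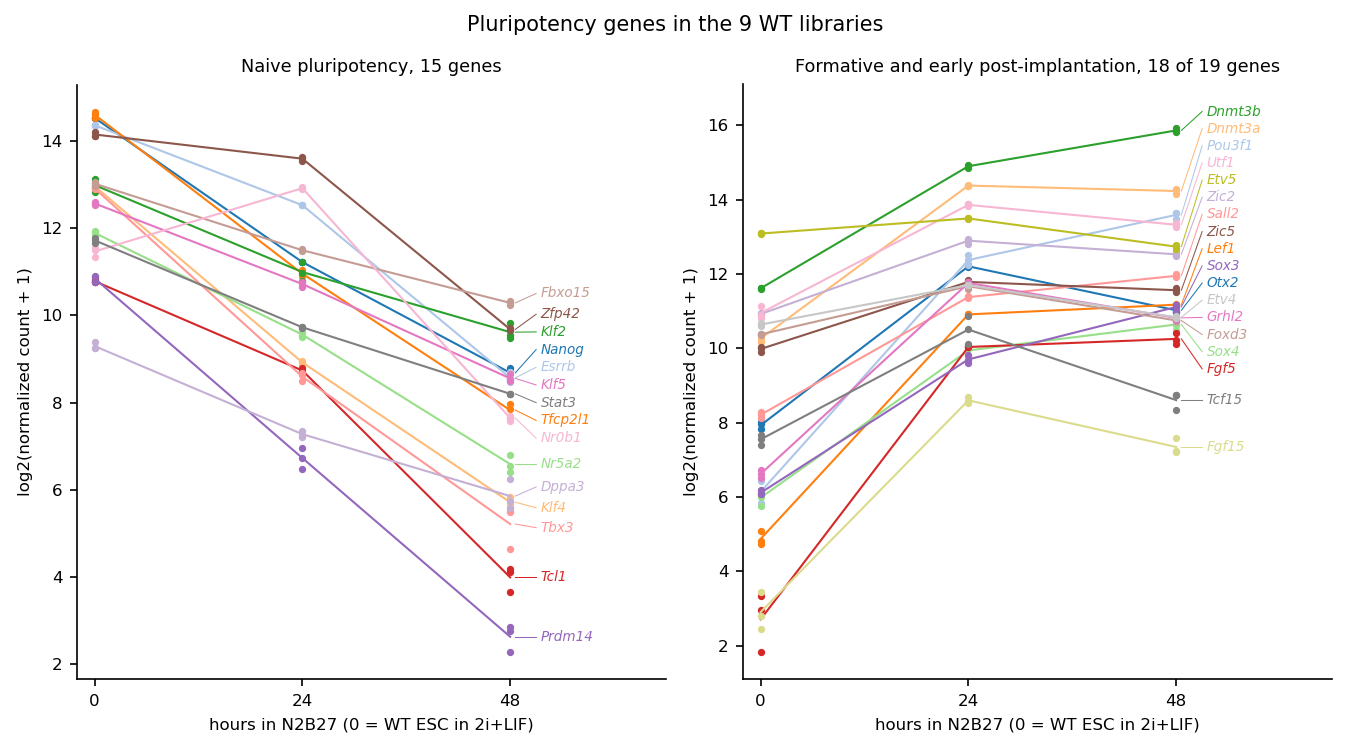
Normalized counts, as log2(count + 1), of the 15 naive genes and 18 of the 19 formative genes in the 9 WT libraries against hours in N2B27. Points are libraries and lines join group means. All 15 naive genes lie lower at 48 h than at 24 h, whereas 7 of the formative genes go on upward and the others shown turn down.

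The largest rises were of genes close to silent at T24. The 15 largest, among genes with a mean of at least 50 normalized counts over the 6 libraries and no overlap between the times, included 4 that had at most 3 reads in every T24 library. For these, the ratio of summed counts with its exact 95% counting interval stands in place of a fitted fold change. Ephb1, an ephrin receptor, had 1.29, 1.01 and 0 normalized counts at T24 and 171, 151 and 169 at T48, a ratio of 176 (interval 60.01 to 858). Fut1, a fucosyltransferase, went from 1.29, 3.03 and 0 to 259, 258 and 233 (ratio 158, interval 67.4 to 488). Slc1a2, a glutamate transporter, went from 0.644, 1.01 and 1.58 to 98.1, 166 and 139 (ratio 134, interval 45.5 to 652), and Plac8 from 1.29, 2.02 and 1.58 to 96.6, 103 and 102 (ratio 63.6, interval 26.9 to 197). The width of these intervals comes from the 3 to 5 reads at T24, and they cover counting error only. In every case the lowest T48 library held over 50 reads.

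The other 11 rises had more than 3 reads in at least 1 T24 library, and their fitted changes are given. Several still rest on few T24 reads, such as Col1a2 with 1, 3 and 5, so their fitted changes and errors are uncertain too. Pde4b, a phosphodiesterase that breaks down cAMP, was at 2.58, 1.01 and 3.15 and then 354, 325 and 364 normalized counts (log2FC 7.24 ± 0.23, adjusted p = 2.3e-38 by edgeR). Btbd17, which was among them the one with the most reads, went from 30.9, 43.4 and 20.5 to 1087, 1166 and 1372, having already risen by 2.36 on the first day. Ramp2, which pairs with the calcitonin receptor-like receptor to make an adrenomedullin receptor, went from 4.51, 12.1 and 7.88 to 383, 380.5 and 411 (5.67 ± 0.18). Col1a2, a chain of type I collagen, went from 0.644, 3.03 and 7.88 to 170.0, 219.9 and 211, Plat, the tissue plasminogen activator, from 3.22, 6.06 and 1.58 to 146, 157 and 188, and Fat4, an atypical cadherin, from 4.51, 0 and 0 to 91.96, 120.5 and 156. Cplx2, a complexin of synaptic vesicle release, went from 5.15, 2.02 and 3.15 to 139.9, 163 and 159, St8sia3, a sialyltransferase, from 4.51, 4.04 and 9.46 to 202, 218 and 211 and Miat, a long noncoding RNA, from 9.02, 7.07 and 6.31 to 361, 327 and 388. Arg1, the liver-type arginase, reached 103, 172 and 135 from 3.86, 2.02 and 0, and Phactr1, a regulator of protein phosphatase 1 and actin, 119, 117 and 117 from 2.58, 4.04 and 3.15. Fitted changes of these 11 lay between 5.17 and 7.24 on the log2 scale.

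The 15 largest falls were of genes with mean ESC levels between 40.01 and 8523 normalized counts, and 10 of them had a negative log2FC on the first day. Jam2, a junctional adhesion molecule (ENSMUSG00000053062, chromosome 16, about 84774100 to 84825900), was at 8593, 8709 and 8267 in ESCs, 955, 1006 and 976 at T24 and 10.8, 5.74 and 6.55 at T48. That was a fall of -6.87 ± 0.10 on the second day (adjusted p = 2.1e-57 by edgeR) after one of -3.14 on the first. Notum, an esterase that switches off WNT proteins by removing their lipid, was at 1208, 1277 and 1314 in ESCs, 855, 899 and 876 at T24 and 10.05, 5.74 and 14.7 at T48 (-6.28 ± 0.13). The overlapping transcript Notumos went from 124, 118 and 132 to 0, 1.91 and 1.64, and whether counting used the strand is not given in the sources used here, so reads of the pair may not be fully separated. Catip, which had risen by 2.39 on the first day, went from 346, 427 and 364 to 4.64, 13.4 and 4.91. Gm14221 had risen too, by 2.07, and had 0, 5.74 and 2.46 normalized counts left of 159.7, 167 and 199, a ratio of counts of 85.9 (exact 95% interval 39.2 to 235).

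Inhbb, the beta B subunit of activin and inhibin, went from 289, 332 and 293 to 5.41, 7.65 and 3.27 (-5.91 ± 0.27). Vax2, a homeobox factor, went from 115, 115 and 86.7 to 3.09, 0 and 3.27. Myof (myoferlin), which serves membrane repair, went from 1788, 1946 and 1873 to 74.96, 82.2 and 85.9 (-4.53 ± 0.07), and the adhesion receptor Adgrg6 from 131, 118 and 142 to 3.86, 0 and 9.002. In each of these genes the highest T48 library lay far below the lowest T24 library. Sh3rf2 (255, 236 and 236, then 10.8, 3.82 and 10.6), Car8 (209, 211 and 214, then 10.05, 7.65 and 11.5) and the tetraspanin Cd37 (321, 354 and 318, then 18.5, 11.5 and 17.2) fell likewise, as did Nr0b1 and Tcl1, described above.

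**Figure D2:**
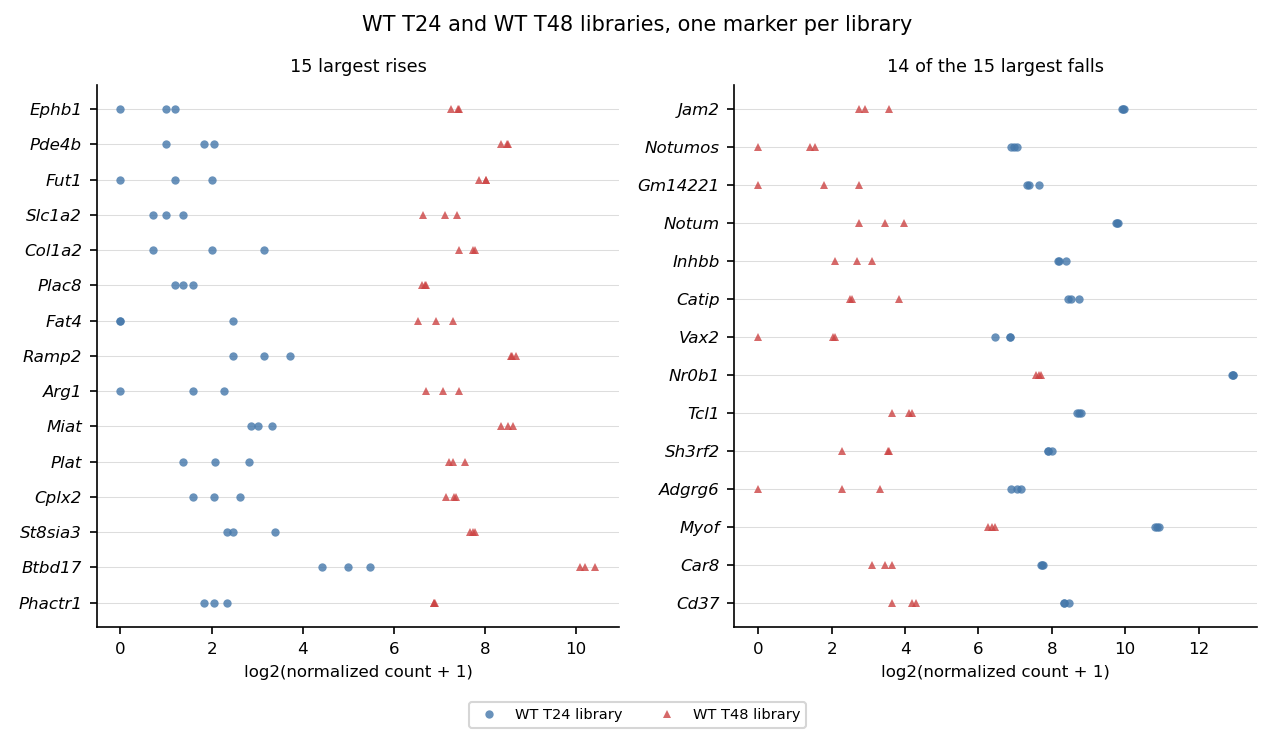
Normalized counts, as log2(count + 1), of the 15 largest rises and 14 of the 15 largest falls in each WT T24 (circles) and T48 (triangles) library. The groups do not touch in any of the genes shown, which the selection required, and most rising genes start near 0.

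Reversal of a first-day change was asked of every gene. A change counted as turned where both days passed the test with absolute log2FC above 1 and opposite signs, and since both days use the same T24 libraries, a T24 value that is high by error raises both. By this rule 402 genes (2.18%) peaked at T24 and 377 (2.04%) dipped. Only 163 of the peaks and 134 of the dips had a mean of at least 50 normalized counts over the 9 WT libraries. With at least 10 counts required in each of those libraries, 163 peaks and 116 dips were left. The level at T48 was compared with ESCs, a contrast in which 74.5% of all genes changed. Among the peaks, 122 were still above ESCs at T48 (30.3%), 77 were below (19.2%) and 203 were not called (50.5%). Among the dips, 125 ended above ESCs (33.2%), 104 below (27.6%) and 148 not called (39.3%). Median changes were 1.94 and then -1.83 on the log2 scale for the peaks and -1.78 and then 1.86 for the dips.

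Transient expression was clearest in genes near silent in ESCs. Pax8, a paired-box factor of thyroid and kidney, was at 4.496, 3.83 and 4.26 normalized counts in ESCs, 409.6, 442 and 400.4 at T24 and 20.9, 36.3 and 21.3 at T48, that is 6.60 and then -4.13 ± 0.14 on the log2 scale, ending 2.47 above ESCs. Nlrc4, a sensor of the inflammasome, followed the same course with 8.99, 10.7 and 11.1, 807, 775 and 780.3 and 55.6, 51.6 and 49.1. Aire, the factor that drives tissue antigen expression in thymus, was at 10.1, 17.6 and 28.1, 2048, 2017 and 2008 and 232, 208 and 209.5, and so kept the most of its rise, 3.48 above ESCs. No T24 library of the 3 genes came near the libraries of the other times. Myo5b, a myosin motor of recycling endosomes, and Dock10, an exchange factor for CDC42 and RAC, were not called against ESCs at T48. Myo5b was at 39.3, 35.96 and 34.1, 327, 326 and 344 and 27.05, 26.8 and 33.6, with a net change of -0.30 ± 0.22 (adjusted p = 0.2 by edgeR), and Dock10 at 25.9, 22.95 and 21.3, 143, 183 and 192 and 13.1, 24.9 and 19.6, with -0.39 ± 0.27 (adjusted p = 0.19 by edgeR). Epas1 (HIF-2 alpha), an oxygen-regulated factor, overshot. It went from 604, 660.3 and 641 to 3513, 3557 and 3809.9 and then to 311, 337 and 369, -0.92 from ESCs. Enox1 (4.003, then -2.72), Gfod1 (3.48, then -2.66), Pirt (3.06, then -2.67) and Diras2 (2.70, then -2.77) make up the 10 strongest peaks.

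Among the 10 strongest dips was Ephb1, which had 48.3, 54.3 and 40.02 normalized counts in ESCs before it was nearly lost at T24, so its late rise took it above where it began (1.78 ± 0.15, adjusted p = 1.8e-17 by edgeR). Srrm4, a splicing regulator known for neural microexons, also ended higher than it started, with 79.8, 68.1 and 66.4, 10.9, 15.1 and 7.88 and 289.8, 315 and 334 (2.13 against ESCs). Cap2, a cyclase-associated actin regulator, was at 115, 122 and 123, 7.08, 3.03 and 7.88 and 86.6, 72.7 and 58.9, and Zbtb16 (PLZF) at 73.1, 79.6 and 55.3, 7.73, 2.02 and 9.46 and 59.5, 97.5 and 85.9. Cap2 stayed short of its ESC level (-0.74 ± 0.14) and Zbtb16 was not called against it (0.14 ± 0.16, adjusted p = 0.43 by edgeR). Nkx1-2, a homeobox gene of the posterior neural plate and a known responder to WNT, was at 259, 250.2 and 184, 21.3, 22.2 and 34.7 and 156, 161 and 191. Serping1, the complement C1 inhibitor (-3.63, then 2.84), the chemokine Cxcl14 (-3.79, then 2.65), Ggt7 (-2.65, then 3.13), Adam11 (-2.64, then 3.05) and Nupr1 (-3.002, then 2.59) complete the 10. Values of the dips at T24 rest on few reads, between 0 and 35 normalized counts in every library except those of Nupr1.

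**Figure D3:**
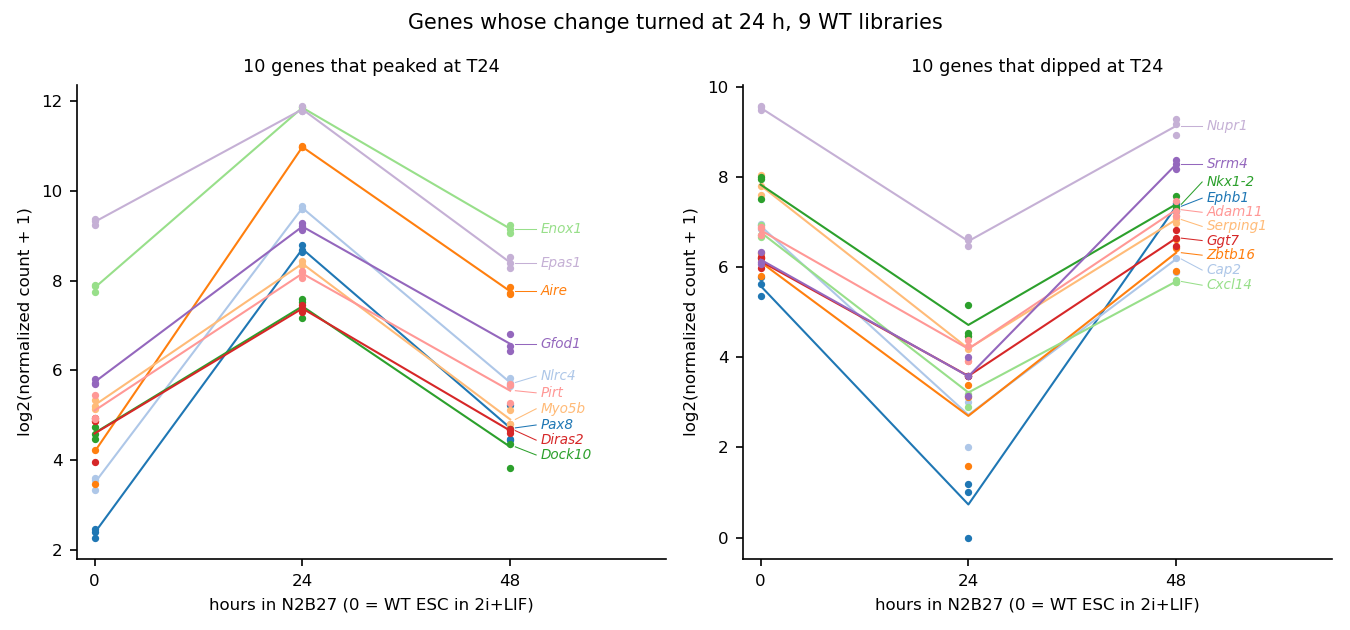
Normalized counts, as log2(count + 1), of the 10 strongest peaks and the 10 strongest dips at T24 in the 9 WT libraries, points for libraries and lines through group means. The turn at 24 h was required by the selection. Aire and Pax8 end well above their ESC level, Myo5b and Zbtb16 end near it and Epas1 ends below.

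A further set began to move only on the second day. The change of the second 24 h differed from that of the first in 10742 genes (58.2%), tested as a difference of differences, and in 6262 with spike-in scaling. The 5 largest rises and falls among called genes that had moved by less than 0.25 on the log2 scale on the first day are given here. Igfbp4, a binding protein that restrains insulin-like growth factors, was at 23.6, 18.4 and 22.99 in ESCs, 22.5, 19.2 and 22.1 at T24 and 399.5, 349.9 and 398 at T48 (4.17 ± 0.17 on the second day, difference between the days 4.18 ± 0.46, adjusted p = 2.0e-10 by edgeR). Serpinf1 (PEDF) went from 10.3, 14.1 and 15.8 to 346, 361 and 315, the scaffold protein Pdzk1 from 5.796, 11.1 and 12.6 to 250.4, 243 and 228, Zcchc12 from 3.22, 6.06 and 7.88 to 134, 155 and 116 and Loxl2, a lysyl oxidase that cross-links collagen, from 9.66, 7.07 and 4.73 to 164, 172 and 146. Sox15, a SOX factor expressed in ESCs, held 446, 453 and 520.2 in ESCs and 417, 407 and 392 at T24 and then dropped to 48.7, 21.03 and 36.8 (-3.38 ± 0.12, difference -3.15 ± 0.17, adjusted p = 2.6e-26 by edgeR). H2-M5, a nonclassical MHC class I gene, went from 2203, 2239.9 and 2043 to 173, 153 and 178, and the neighbouring pseudogene H2-M6-ps from 525, 524 and 555 to 44.1, 55.4 and 51.6, 2 related genes between which reads may have been shared or lost. The noncoding E330020D12Rik (146, 163 and 178, then 7.73, 9.56 and 13.1) and 2410137M14Rik (169, 198 and 194, then 17.8, 9.56 and 13.1) gave the other falls.

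Genes of the ATF4 pathway rose nearly as a block on the second day. ATF4 is a bZIP factor whose translation is raised when amino acids run short or the endoplasmic reticulum is stressed, and it drives genes for amino acid import, serine synthesis, one-carbon metabolism and, with CHOP (Ddit3), cell death. Of the 23 genes on the list, 21 rose and 2 fell (median log2FC 1.30, 14 rises beyond a factor of 2), beside 32.8% and 32.9% of all genes. On the first day 4 had risen and 16 had fallen, with a median of -0.56, beside 31.8% and 33.6% of all genes. Over the whole 48 h the median was 0.53. No T48 library overlapped a T24 library in any of the 23, beside 67.3% of all genes without overlap. With spike-in scaling the median was 1.43.

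Of the 19 list genes that have a promoter entry in RefSeq (GRCm38.p6) 5 carry the letters TGATGCAA, found in CEBP-ATF response elements, or their complement TTGCATCA, on either strand in the 250 bases before the start, against 248 of 27025 genes (0.918%) with an entry. All 19 rose, since neither gene of the list that fell has an entry. These promoters are shown because their genes include the largest rises of the list. They are given 5′ to 3′ on the gene's strand, ending at the base before the start, with the matched letters in capitals, and a match is a string of letters and no evidence of binding. The regions are chr1:191183334-191183583 (minus strand) for Atf3, chr2:119350992-119351241 (plus) for Chac1, chr3:50443614-50443863 (minus) for Slc7a11, chr7:126625471-126625720 (minus) for Nupr1 and chr19:27216770-27217019 (plus) for Vldlr.
Vldlr: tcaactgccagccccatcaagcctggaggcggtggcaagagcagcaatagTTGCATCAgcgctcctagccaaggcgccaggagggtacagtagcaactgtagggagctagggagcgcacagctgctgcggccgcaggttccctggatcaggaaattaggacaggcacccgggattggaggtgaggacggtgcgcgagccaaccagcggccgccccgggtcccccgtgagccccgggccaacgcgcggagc
Chac1: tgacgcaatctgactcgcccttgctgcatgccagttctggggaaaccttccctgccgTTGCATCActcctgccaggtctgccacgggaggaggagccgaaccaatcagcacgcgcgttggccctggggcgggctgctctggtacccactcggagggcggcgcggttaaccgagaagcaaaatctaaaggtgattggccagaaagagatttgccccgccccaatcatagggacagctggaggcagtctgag
Atf3: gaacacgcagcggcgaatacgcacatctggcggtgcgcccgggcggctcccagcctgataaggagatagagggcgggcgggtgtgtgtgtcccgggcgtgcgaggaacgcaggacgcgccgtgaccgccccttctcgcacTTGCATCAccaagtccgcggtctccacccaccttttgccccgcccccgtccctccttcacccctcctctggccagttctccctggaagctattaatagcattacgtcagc
Slc7a11: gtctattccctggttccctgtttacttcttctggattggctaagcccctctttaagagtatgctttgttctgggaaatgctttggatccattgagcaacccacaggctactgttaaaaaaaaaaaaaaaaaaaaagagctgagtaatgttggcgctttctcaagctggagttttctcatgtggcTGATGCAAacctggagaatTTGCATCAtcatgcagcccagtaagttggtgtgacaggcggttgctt
Nupr1: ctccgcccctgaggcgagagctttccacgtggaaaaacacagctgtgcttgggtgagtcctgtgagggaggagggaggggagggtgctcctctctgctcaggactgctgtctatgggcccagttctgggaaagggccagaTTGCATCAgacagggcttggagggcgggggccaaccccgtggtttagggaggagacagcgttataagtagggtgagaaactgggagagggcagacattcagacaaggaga
The match begins 200 bases before the start in Vldlr, 193 in Chac1, 110 in Atf3 and in Nupr1, and Slc7a11 holds 2, at 66 and 47 bases.

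Vldlr, a lipoprotein receptor, had the largest rise of the list, from 26.4, 39.4 and 31.5 to 889, 878 and 796 normalized counts (4.75 ± 0.12, adjusted p = 7.1e-43 by edgeR), after 102, 125 and 101 in ESCs. Chac1, which breaks down glutathione, went from 139, 140.3 and 131 to 2162, 2141 and 1908 (3.90 ± 0.07), and Atf3, a stress-induced bZIP repressor, from 14.8, 15.1 and 9.46 to 189, 199 and 174 (3.73 ± 0.18). All 3 had fallen on the first day, by 1.82, 1.07 and 1.44. Slc7a11, the cystine importer, went from 28.98, 25.2 and 28.4 to 296, 309.7 and 311. Nupr1, a small stress-induced chromatin protein, was at 758, 767 and 719 in ESCs, 88.2, 101 and 96.2 at T24 and 626, 585 and 493 at T48, and is one of the dips. The serine synthesis enzymes Phgdh (1128, 1142 and 1133, then 3360.2, 3373 and 3036), Psat1 (6134, 6299 and 5842, then 15679, 15235 and 14272) and Psph (728, 747 and 649, then 1784, 1793 and 1598) rose together by 1.51, 1.30 and 1.26 on the log2 scale. Atf4 itself rose from 5127, 5239 and 5106 to 9236, 9080.0 and 9087 (0.82 ± 0.03), Trib3, a pseudokinase that feeds back on ATF4, by 1.81, and Ddit3 (CHOP) by 1.28. Asns, asparagine synthetase, gained little (6896, 6837 and 6827, then 8577, 8847 and 8239.6). The falls were of Slc7a3, a cationic amino acid transporter, from 11145, 11714 and 11945 to 5075, 4788 and 4887 (-1.24 ± 0.03), and of Cth, the enzyme that makes cysteine from cystathionine, from 4424, 4751 and 4644 to 2187, 2099 and 2072 (-1.12 ± 0.04).

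**Figure D4:**
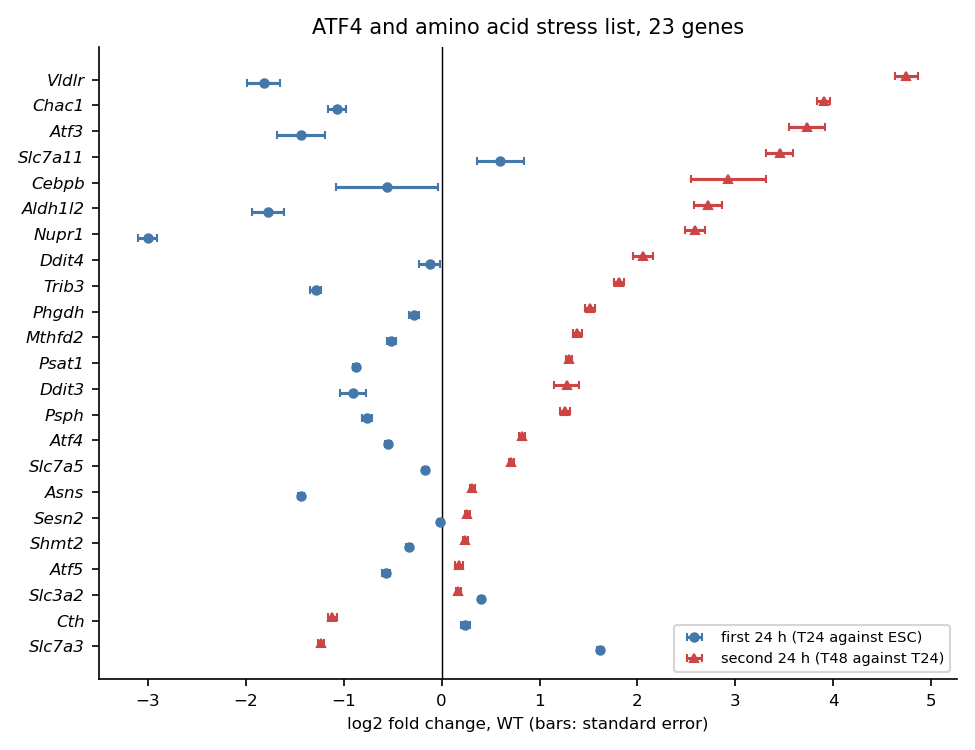
Log2 fold changes of the 23 ATF4-pathway genes in WT cells on the first day (circles, T24 against ESC) and the second (triangles, T48 against T24), with approximate standard errors. The 2 series share the T24 libraries. All but Slc7a3 and Cth lie right of 0 on the second day.

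Glycolysis and hypoxia genes followed in the same direction, with 20 of 28 higher, 6 lower and 2 not called (median 0.59). Over all genes the shares were 32.8% higher and 32.9% lower. The largest rise was that of the glucose transporter Slc2a1 (GLUT1), from 5608, 5305 and 5266 to 28164, 27649 and 26683 (2.34 ± 0.03, adjusted p = 8.2e-64 by edgeR). Vegfa, the angiogenic growth factor, regained 1023, 1031 and 907 from 259, 242 and 255, after 1142, 1174 and 1113 in ESCs. Among the enzymes of the pathway Ldha (1.56), Tpi1 (1.17), Pfkl (1.13) and Pgk1 (0.97) rose, and these families have processed copies in the genome whose reads may be lost. Pfkp, the platelet-type phosphofructokinase, gave the largest fall, from 5256, 5131 and 5095 to 1358, 1174 and 1126 (-2.08 ± 0.04), and the glucose transporter Slc2a3 fell by 1.09. Messengers made in mitochondria went the other way. Of 13 mitochondrial mRNAs 12 fell and none rose (median -0.57), with mt-Nd5 changing by -0.71 ± 0.10 and mt-Co1 from 54744, 51840.3 and 49726 to 31265, 30362 and 36796, and mt-Atp8 was the one not called (-0.57 ± 0.32, adjusted p = 0.11 by edgeR). Cholesterol synthesis was close to level, 12 of 25 genes higher and 7 lower with a median of 0.03, with the sterol desaturase Sc5d among the rises (580.3, 594 and 607, then 1009, 939 and 999, 0.74 ± 0.05) and the sterol isomerase Ebp as the largest fall (470.1, 426 and 404, then 158, 128 and 173, -1.48 ± 0.08).

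Cell cycle and p53 genes mostly fell, where 32.8% of all genes rose and 32.9% fell. Of 17 G1 cyclins and CDK inhibitors 13 fell and 1 rose (median -0.63, 5 falls beyond a factor of 2). Ccnd3, a D-type cyclin, fell the most, from 4576, 4379 and 4464 to 1223, 1245 and 1191 (-1.88 ± 0.03), and Ccnd2, which had risen by 4.85 on the first day, gave back 1.07. Cdk4, the one rise, changed by 0.07 ± 0.03, and its call was lost without T24 replicate 3 (adjusted p = 0.082) or T48 replicate 1 (adjusted p = 0.066 by edgeR), with spike-in scaling and with no filter. Of 20 p53 targets 13 fell and 4 rose (median -0.31), none beyond a factor of 2, from Trp53inp1 (-0.89 ± 0.03) to the death receptor Tnfrsf10b (0.40 ± 0.04). With spike-in scaling 6 p53 targets were called lower. The MYC network held 6 rises and 9 falls in 18 genes, with a median of -0.04 that took the other sign (0.08) with spike-in scaling. Mycl (0.73 ± 0.06) rose the most and Mxd4, a MAX partner that opposes MYC, fell the most (-0.87 ± 0.08). Myc itself fell from 2221, 2203 and 2189 to 1190.1, 1346 and 1328, after a first-day rise of 3.79.

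Among the signalling pathways, ERK targets and feedback genes were split. On the first day, when both inhibitors and LIF were withdrawn together, 18 of 21 had risen and 2 had fallen, beside 31.8% and 33.6% of all genes. On the second day they stood at 7 higher and 12 lower (median -0.51), beside 32.8% and 32.9% of all genes. The feedback phosphatase Dusp4 rose from 2401, 2435 and 2363 to 4263, 4443 and 4301 (0.85 ± 0.03), Dusp6 by 0.53 and the immediate early gene Egr1 by 0.77, whereas the ETS factors Etv1, Etv4 and Etv5 fell by 0.92, 0.86 and 0.76. Epha2, an ephrin receptor that ERK signalling induces, fell the most, from 6525, 6593 and 6713 to 569.6, 514 and 561 (-3.57 ± 0.04, adjusted p = 7.2e-67 by edgeR), and Phlda1 fell from 98.5, 99.9 and 99.3 to 21.6, 15.3 and 21.3. FGF ligands and receptors stood at 5 higher and 5 lower of 12, with a median of -0.02 that was 0.10 with spike-in scaling and -0.57 with at least 10 counts required in each of the 6 libraries. Fgf4, the ligand of ESCs, fell from 9611, 9639 and 9358 to 3385, 2895 and 2886 (-1.64 ± 0.05), and Fgfr2 rose from 261, 267 and 307 to 803, 941 and 1019 (1.74 ± 0.08), with Fgfr1 at 3213, 3184 and 3184 and 3163, 3189 and 3180.3.

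Nodal pathway genes mostly fell, with 9 of 12 genes lower and 1 higher (median -1.004, -0.87 with spike-in scaling). All genes stood at 32.9% lower and 32.8% higher. Nodal, the ligand, went from 1367, 1426 and 1431 to 456, 463 and 446 (-1.63 ± 0.05), its co-receptor Tdgf1 (Cripto) from 6682, 6417 and 6114 to 2263, 1698 and 1615 (-1.77 ± 0.09), and the feedback antagonists Lefty1 and Lefty2 fell by 1.06 and 1.30. Smad7, an inhibitory SMAD, fell the most, from 1175, 1166 and 1045 to 115, 74.6 and 94.9 (-3.51 ± 0.12). The one rise was that of Skil (0.34 ± 0.06), a co-repressor of SMADs. In the BMP list 3 of 14 rose and 4 fell. Id3, an inhibitor of bHLH factors and a BMP target, fell from 732, 725 and 742 to 69.6, 61.2 and 67.1 (-3.45 ± 0.10), its relative Id2 rose from 101, 108 and 110.3 to 302, 308 and 360.1 (1.63 ± 0.10), Id1 was not called (-0.29 ± 0.18, adjusted p = 0.15 by edgeR), and the ligand Bmp2 had the largest rise (3.22, 6.06 and 1.58, then 13.1, 17.2 and 12.3).

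In the WNT list 9 of 24 rose, 5 fell and 10 were not called, where 32.8% of all genes rose and 32.9% fell. The median of -0.02 was 0.10 with spike-in scaling. The largest rise was that of the ligand Wnt8a, from 43.1, 42.4 and 48.9 to 784, 966 and 1105 (4.42 ± 0.13, adjusted p = 6.3e-26 by edgeR), and Wnt3 went from 6.44, 5.05 and 6.31 to 26.3, 28.7 and 27.01. The largest fall was that of Notum, described above. Axin2, the feedback inhibitor that reads out beta-catenin, fell from 489, 460.3 and 424 to 240.3, 294 and 251 (-0.87 ± 0.14), the repressor Tcf7l1 fell from 4566, 4201 and 4294 to 1909.6, 1692 and 1868, and Lef1 changed by 0.26 ± 0.04. Without T48 replicate 3, 8 genes of the list fell in place of 5. In the retinoic acid list 7 of 13 rose and 3 fell. Stra6, a transporter of retinol, went from 29.6, 19.2 and 33.1 to 196, 228 and 251 (3.04 ± 0.17), Cyp26a1, which degrades retinoic acid, from 2.58, 1.01 and 0 to 14.7, 7.65 and 13.1 (2.93 ± 0.57), and Hoxb1 from 1 read in each T24 library to 56, 17 and 74 at T48 (ratio of counts 51.2, exact 95% interval 17.2 to 251). The binding protein Crabp1 gave the largest fall (349, 362 and 404, then 208, 231 and 201, -0.81 ± 0.09).

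DNA methylation enzymes were all called, with 3 of 9 higher and 6 lower, beside 32.8% and 32.9% of all genes. Dnmt3b and Dnmt3a parted, at 0.96 and -0.15, the second of which was not called with spike-in scaling. Their cofactor Dnmt3l fell from 21189, 21282 and 21805 to 5696, 6166 and 6290.2 (-1.83 ± 0.04) after a rise of 5.31, and the maintenance factor Uhrf1 fell by 0.95. Of the dioxygenases that remove the mark, Tet2 fell from 2710.1, 2646 and 2811 to 505, 532 and 625 (-2.29 ± 0.07), Tet1 by 0.89, and Tet3 rose from 493, 599 and 533 to 1236, 1369 and 1377 (1.30 ± 0.06). Imprinted genes were largely higher, 21 of 31 against 4 lower (median 0.64, 13 rises beyond a factor of 2). Igf2, the growth factor, had 2 reads over the T24 libraries and 24, 6 and 19 at T48 (ratio 25.6, exact 95% interval 6.72 to 217). H19, which lies next to it, went from 71.5, 56.5 and 52.02 to 426, 472 and 430.5 (2.80 ± 0.11), Phlda2 from 52.2, 41.4 and 37.8 to 301, 373 and 331, and Dlk1, Meg3, Rian and Mirg of the Dlk1-Meg3 cluster rose by 1.85, 1.48, 1.60 and 1.33. Zim1 gave the largest fall, 23.8, 16.2 and 18.9 and then 6.18, 5.74 and 10.6 (-1.36 ± 0.35), and Plagl1 fell by 1.23. Counts do not separate the parental alleles. In the LIN28 list, 6 of 10 rose and 3 fell. Lin28b, which blocks let-7 maturation, went from 326, 320.0 and 331 to 2178, 2076 and 2202 (2.73 ± 0.05) and Lin28a by 0.96, whereas Arid3b had the largest fall (-0.54 ± 0.04). With spike-in scaling 3 were called higher.

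Links between membrane and cortex, the subject of the study, changed gene by gene. Of 25 linkers 8 rose and 11 fell, beside 32.8% and 32.9% of all genes. The median of -0.05 was 0.08 with spike-in scaling and 0.01 without T48 replicate 3. Among the ERM proteins, which tie the membrane to actin, Ezr (ezrin) went from 7890.0, 7703 and 7539 to 10095, 10508 and 9683 (0.38 ± 0.03), Msn (moesin) was not called (-0.05 ± 0.04, adjusted p = 0.28 by edgeR), and Rdx (radixin) moved by 0.06 ± 0.03. Cd44, a hyaluronan receptor that binds ERM proteins, had the largest rise, from 3.22, 3.03 and 3.15 to 91.96, 101 and 113 (4.96 ± 0.29, adjusted p = 9.3e-25 by edgeR), and Podxl rose by 1.65. Among the class I myosins, Myo1f fell from 1416, 1414 and 1483 to 111, 101 and 126 (-3.64 ± 0.09), Myo1g fell by 1.79 and Myo1d rose by 1.11. The call of Rdx was lost in 5 of the settings that changed normalization, filter or libraries and without T24 replicate 2, T24 replicate 3 or T48 replicate 1 (adjusted p = 0.13, 0.12 and 0.2 by edgeR). In the endocytosis list 15 of 24 fell and 7 rose (median -0.20), and with spike-in scaling 4 were called lower. The clathrin light chain Cltb fell from 913, 888 and 954 to 196, 189 and 204 (-2.21 ± 0.06), dynamin 2 (Dnm2) by 1.07, and the adaptor Dab2 rose from 25.8, 32.3 and 42.6 to 170.0, 205 and 192 (2.56 ± 0.15). YAP targets gave 5 rises and 6 falls of 17 with a median of -0.04, which was 0.08 with spike-in scaling. Tead4 fell the most (318, 344 and 336, then 43.3, 53.5 and 36.8, -2.96 ± 0.11), and Nuak2 rose the most (0.71 ± 0.10).

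In the cadherin and EMT list 11 of 22 rose and 6 fell, beside 32.8% and 32.9% of all genes. Zeb2 rose from 27.7, 29.3 and 34.7 to 305, 331 and 414 (3.56 ± 0.14) while its paralogue Zeb1 fell from 629, 622 and 632 to 105, 134 and 149 (-2.30 ± 0.08), both being repressors of E-cadherin, and Cdh1 (E-cadherin) itself rose by 0.25 ± 0.03. The epithelial factor Grhl3 had the largest fall (337, 326 and 381, then 40.2, 57.4 and 36.8, -3.03 ± 0.12), and the claudins Cldn6 and Cldn7 rose by 1.73 and 2.62. In the matrix and integrin list 14 of 26 rose and 11 fell. Itgb8, an integrin subunit that frees latent TGF-beta, had no read at T24 and 36, 19 and 46 at T48, at least 35.2-fold higher against a floor of 3 counts over the group. Nid1 (nidogen), a linker of basement membranes, had the largest fall, from 1868, 1923 and 2085 to 213, 233 and 205 (-3.19 ± 0.06), Fn1 (fibronectin) and its receptor chains Itga5 and Itgav fell by 1.35, 0.99 and 1.30, and the laminin chains Lama1 and Lamb1 rose by 1.42 and 2.03. Of Eph receptors and ephrins 7 of 19 rose and 5 fell, beside the same shares of all genes. Beside Ephb1, the receptor Epha1 went from 108, 88.8 and 80.4 to 2453, 2600.3 and 2527 (4.71 ± 0.07), Epha8 from 3.86, 8.08 and 3.15 to 91.96, 97.5 and 98.2, and the ligand Efnb1 from 23.8, 21.2 and 26.8 to 103, 163 and 108 (2.30 ± 0.19), and the largest fall was that of Epha2, given with the ERK targets.

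Early neural genes were mostly higher at T48. Of 15 tested 10 rose, all beyond a factor of 2, and 3 fell, and 5 more on the list were too low to test. Over all genes 32.8% rose, 10.8% beyond a factor of 2, and 32.9% fell. Nes (nestin), an intermediate filament of neural progenitors, went from 185, 205 and 191 to 1087, 1046 and 1015 (2.44 ± 0.08, adjusted p = 2.2e-30 by edgeR), Map2, a dendritic microtubule protein, from 21.9, 25.2 and 15.8 to 370.2, 358 and 385 (4.09 ± 0.14), and Irx3 from 52.2, 47.4 and 42.6 to 277, 258 and 321. Sox11 went from 948, 1008 and 927 to 2421, 2442 and 2578. Of the factors that define neural ectoderm, Sox1 was not called, at 449.5, 439 and 374 and 393, 497 and 531 (adjusted p = 0.15 by edgeR) and Pax6 fell from 226, 265 and 246 to 145, 157 and 154 (-0.69 ± 0.10). Sox1 was called higher when T48 replicate 1 was left out (0.28, adjusted p = 0.0016 by edgeR). The largest fall was that of Hes3, from 45.7, 33.3 and 28.4 to 4.64, 3.82 and 10.6 (-2.43 ± 0.33). The summed level of the 20 markers was 2573 to 2762 at T24 and 6306 to 6503 at T48, after 3522 to 3606 in ESCs. Tubb3 was the largest part of the ESC sum. It was at 2283, 2471 and 2413 in ESCs, 665, 649 and 656 at T24 and 1485, 1392 and 1351 at T48.

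Markers of other cells were looked at for what else the dishes could hold. Of the streak and mesendoderm list 7 of 13 tested rose and 1 fell, at low levels, beside 32.8% and 32.9% of all genes. The sum of all 16 markers was 181 to 216 at T24 and 382 to 435 at T48, after 1810.2 to 2374 in ESCs. At T48 Nkx1-2 was the largest part of the sum, and T (brachyury) had 4, 5 and 1 reads at T24 and 10, 1 and 9 at T48 and was not called. Cdx2 went from 3 reads over the T24 libraries to 15, 9 and 27 (ratio 17.8, exact 95% interval 5.75 to 89.05). Eomes, the one fall (-0.30 ± 0.11), lost its call without T24 replicate 1 or T48 replicate 3 (adjusted p = 0.073 and 0.068 by edgeR), with spike-in scaling and at the lowest depth.

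In the primitive endoderm list 6 of 12 rose and 1 fell, beside 32.8% and 32.9% of all genes. Sums were 771 to 824 at T24 and 1668 to 1764 at T48, after 2238 to 2345 in ESCs. Lama1 was the largest part of the ESC sum (1731, 1758 and 1803). The rises were led by Dab2, and included Col4a1, Lama1, Cubn and the transcription factors Sox7 and Foxa2. The last 2 rest on few T24 reads (6, 0 and 1 for Sox7 and 8, 4 and 6 for Foxa2). The factors Gata4, Gata6 and Sox17 were not called (0.21 ± 0.26, -0.29 ± 0.20 and -0.66 ± 0.34), and Sox17 was called lower when T24 replicate 2 or T48 replicate 2 was left out. Hnf4a fell (18.03, 28.3 and 17.3, then 5.41, 1.91 and 4.91, -2.18 ± 0.40). In the trophoblast list 5 of 9 rose and 4 fell. Its sums were 702 to 759 at T24 and 918 to 981 at T48, after 3826 to 3989 in ESCs. Tfap2c was the largest part of the ESC sum (2893, 2875 and 2797). The simple epithelial keratins Krt8 and Krt18 rose (2.03 ± 0.16 and 2.52 ± 0.10). The transcription factors Tfap2c, Hand1 and Cdx2 rose too, Hand1 and Cdx2 from few T24 reads. Gata3, Tead4, Ascl2 and Plet1 fell, and Elf5 had 1 read at T24 and 4 at T48.

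All 5 feeder fibroblast markers that could be tested rose, where 32.8% of all genes rose and 32.9% fell. The sum over the 10 markers was 73.4 to 89.8 at T24 and 635 to 702 at T48. Nearly all of the T48 sum was Col1a2, Dcn, Thy1, Col1a1 and Acta2. Dcn (decorin), a small matrix proteoglycan, went from 19.3, 16.2 and 11.03 to 222, 243 and 215 and Thy1 from 31.6, 38.4 and 47.3 to 131, 124 and 127. The fibroblast genes Postn, Lum, Twist2 and Prrx1 had at most 2 reads in any library at either time, and Postn had none. Of 7 tested 2-cell-like genes 5 fell and none rose, Zscan4d from 42.5, 51.48 and 48.9 to 12.4, 13.4 and 25.4, with sums of 151 to 177 and 45.9 to 79.4, and these families hold near-identical copies between which reads may have been lost. Of the germline genes 9 of 15 rose and 4 fell. Mael, which acts in piRNA silencing, had the largest rise (261, 254 and 265, then 1151, 1124 and 1045, 2.08 ± 0.07), and Dazl, an RNA-binding protein of germ cells, the largest fall (1969, 2001 and 2060.2, then 526, 541 and 551, -1.90 ± 0.05). Tex19.1 and Tuba3a fell as well, and the summed level was 11761 to 11809.6 at T24 and 6891 to 7172 at T48. The part of minority cells in the changes of other genes was not tested.

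**Figure D5:**
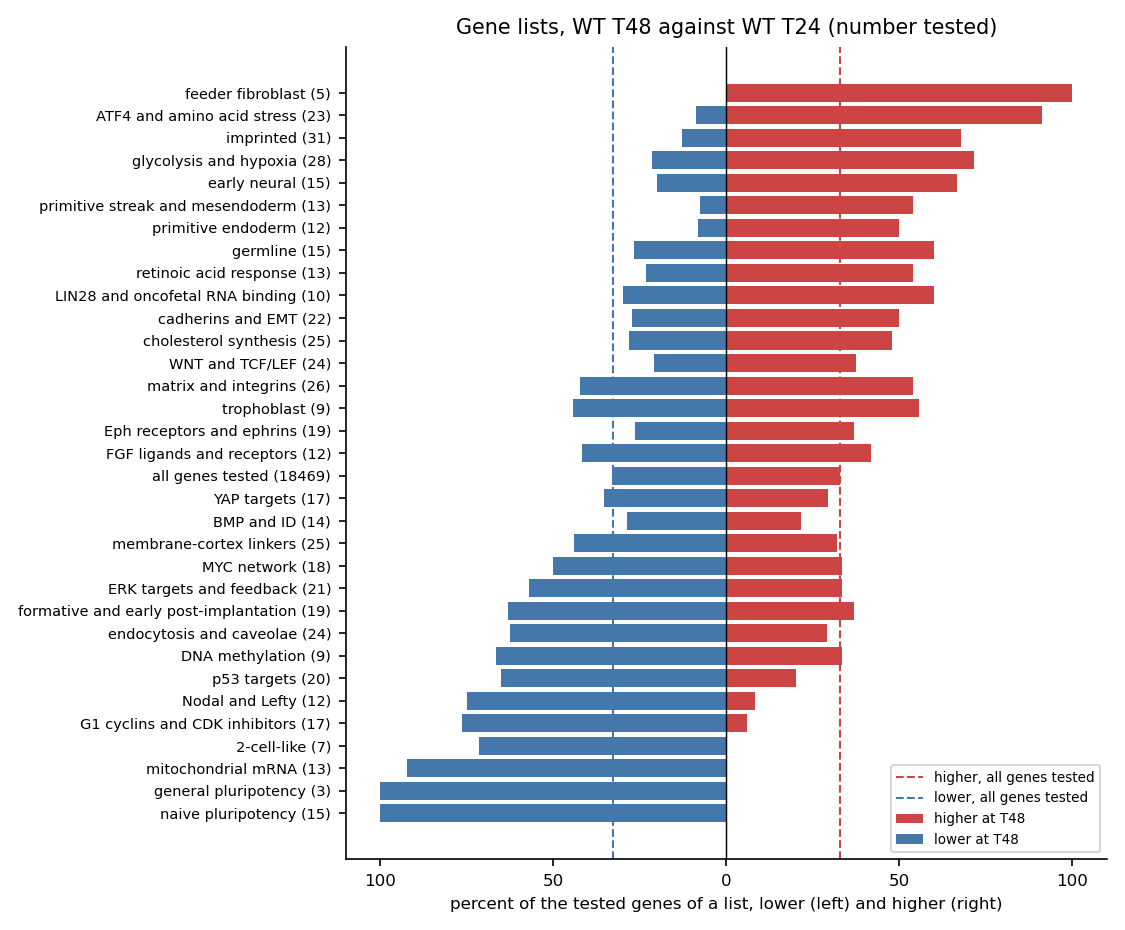
Percent of the tested genes of each list, and of all genes, called higher (right) and lower (left) in WT T48 against T24. Dashed lines mark the shares over all genes, 32.8% higher and 32.9% lower. Naive genes lie wholly to the left and the ATF4 and feeder lists almost wholly to the right.

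The second day was also set against that of iEZR_CA cells. The change from T24 to T48 differed between the lines in 8526 genes (46.2%), and in 3761 with spike-in scaling. Genes named here were picked by the size of their WT changes in the same libraries, which favours a larger change in WT cells. Jam2 was at 1229.6 ± 44.4 normalized counts in iEZR_CA cells at T24 (SD, n = 3) and 81.95 ± 8.17 at T48, a change of -3.91 against -6.87 in WT cells (difference -2.96 ± 0.20, adjusted p = 1.1e-20 by edgeR). Notum went from 788 ± 53.4 to 151 ± 19.98 (difference -3.88 ± 0.20). The late fall of Pax8 was not called in iEZR_CA cells, with 97.5 ± 10.9 and then 80.9 ± 4.86 (-0.30, adjusted p = 0.057 by edgeR) where WT cells lost 4.13 (difference -3.83 ± 0.22, adjusted p = 1.5e-24 by edgeR), and Dock10 was not called there either, at 92.3 ± 11.6 and 97.1 ± 12.1 (adjusted p = 0.76 by edgeR). Zbtb16, a dip in WT cells, was at 15.8 ± 2.69 and 10.01 ± 1.403 (difference 4.24 ± 0.47, adjusted p = 7.2e-12 by edgeR). For Nkx1-2, which had at most 3 reads in each iEZR_CA library at T24, no difference was called (adjusted p = 0.68 by edgeR). Among the 5 leading rises none was called for Slc1a2 or Pde4b either (adjusted p = 0.55 and 0.37 by edgeR). Both had at most 3 reads in each iEZR_CA library at T24. Ephb1, Fut1 and Col1a2, the other leading rises, did differ (adjusted p = 0.0029, 0.006 and 1.1e-05 by edgeR).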

How the data were processed

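Polyadenylated RNA of 18 cultures (2 lines, 3 times, 3 libraries each) was sequenced. The authors deposited raw read counts per gene, and the study's methods and the submitters' processing notes name Trim Galore 0.6.5, GSNAP 2015-09-29 and HTSeq with Ensembl release 81 on GRCm38. Whether counting used the strand is not given in the sources used here. The table held 53801 genes, of which 53706 matched a GENCODE annotation of GRCm38 for symbols and positions. The 92 spike-in sequences and 5 summary lines stayed out of library sizes and tests. In the WT T24 and T48 libraries they included 0.683 to 0.766% of reads on spike-ins, 13.2 to 13.7% not aligned, 4.63 to 4.76% ambiguous and 3.71 to 4.33% on no feature. Total gene counts were 10940752 to 33276622 in the 6 WT T24 and T48 libraries.

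From these counts, 18469 genes that passed edgeR's filter on low counts were fitted with edgeR 4.0.16 (TMM, robust quasi-likelihood, 1 term per group over the 18 libraries, 12 residual degrees of freedom), with Benjamini-Hochberg adjustment and a threshold of 0.05. Size factors came from DESeq2 1.42.0. Groups were taken from the labels, and replicate numbers follow the order of the samples. The methods call replicates independent, but no culture is named in the labels, so p-values measure the spread between these libraries. Intervals and floors (3 counts) cover counting error only. The scripts were tested on simulated counts.

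Named genes were the 15 largest rises and falls and the 10 strongest peaks and dips (mean of at least 50), the 5 largest rises and falls that began on the second day, and members of 32 lists, and some of these genes are not reported here. Members and lists were chosen with earlier results of these data known. Alternatives were DESeq2, size factors, spike-in scaling, other filters, fewer libraries, thinning and leaving out each replicate.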

Additional observations from a re-analysis of the deposited data

Results flagged for a closer look

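The change from T24 to T48 was tested for a difference between WT and iEZR_CA cells, and among the 5 leading rises, falls, peaks and dips the genes given here passed with more than the floor of 3 counts in a library of each group (edgeR, adjusted p under 0.05, differences as WT minus iEZR_CA on the log2 scale). Among the rises this was Col1a2 (4.74 ± 0.86, with 6.05 in WT and 1.31 in iEZR_CA cells). Among the falls these were Jam2 (-2.96 ± 0.20) and Notum (-3.88 ± 0.20).

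Of the peaks, Pax8 (-3.83 ± 0.22), Nlrc4 (-3.71 ± 0.14), Aire (-3.09 ± 0.09), Myo5b (-1.87 ± 0.20) and Dock10 (-3.28 ± 0.24) fell further in WT cells. Nlrc4 changed by -0.21 and Aire by -0.13 in iEZR_CA cells. Of the dips, Cap2 (1.41 ± 0.54, adjusted p = 0.027 by edgeR), Zbtb16 (4.24 ± 0.47) and Serping1 (3.39 ± 0.28) had the more positive change in WT cells. Genes were picked by the size of their WT changes, and the same WT libraries enter the differences. That choice favours a larger change in WT cells, so the adjusted p-values are not independent of it. Transgene, doxycycline and line cannot be told apart in these differences.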

How the results depend on the processing

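No paired analysis was possible because the labels give no replicate number, and the order of wells or samples was not used to pair libraries. Of 7727 values for 563 named genes under the alternatives, 7528 kept their side of the threshold and 172 lost and 24 gained a call. The other 3 changed sign, Spred2 (0.024), Aen (0.0202) and Mycn (0.053) with spike-in scaling. A change of sign was counted only where a fit called the gene, so uncalled values that changed sign are among the 7528. Spike-in scaling left 3368 falls, 6262 genes that differed between the days and 3761 that differed between the lines. It moved list medians to -3.02 (naive), -0.38 (general pluripotency and ERK), -0.24 (formative), 0.10 (FGF and WNT), -0.87 (Nodal), -0.19 (DNA methylation), 0.0767 (membrane-cortex), 0.0838 (YAP), 0.0808 (MYC), -0.0649 (endocytosis), 0.39 (cadherins), 0.23 (matrix and LIN28), 0.20 (Eph), 0.17 (cholesterol), 0.72 (glycolysis), 1.43 (ATF4), -0.18 (p53) and -0.50 (G1). In all, 8823 genes were then called between T24 and T48, against 12137. By construction it shifts all genes of a library together, by an amount that differs between libraries, replicates included. Spike-in reads per read on genes were 0.914, 0.979 and 0.899% in the WT T48 libraries. In the iEZR_CA T48 libraries they were 1.167, 0.764 and 0.855%.

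Requiring 10 counts in each of the 6 libraries tests fewer genes and left 967 rises and 1001 falls beyond a factor of 2, and 163 peaks and 116 dips when asked of the 9 WT libraries. The medians were then -3.03 (naive), 0.22 (retinoic acid), -0.48 (trophoblast), 1.79 (feeder, 1 gene), 1.12 (germline), -0.57 (FGF) and -0.0705 (Eph), and no 2-cell-like gene was left. Testing against a factor of 2 with glmTreat left 1274 rises and 1156 falls. Thinning to the lowest depth gave medians of 0.70 (streak), 0.35 (trophoblast), 0.0559 (YAP) and -0.22 (p53).

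Leaving out 1 replicate at a time gave 11333 to 11942 called genes, 395 to 434 peaks and 345 to 370 dips. List medians then ranged from -3.19 to -3.07 (naive), 0.83 to 1.46 (streak), 1.02 to 1.496 (neural), 0.32 to 0.63 (retinoic acid), 0.70 to 1.12 (germline), 0.62 to 0.81 (imprinted), -0.0692 to 0.00744 (membrane-cortex), 0.0257 to 0.102 (cholesterol) and -0.65 to -0.55 (G1). The cause of these moves was not tested. Genes with few reads at either time are limited by depth.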
